A study of Homo sapiens with 6 samples.

Results

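Deoxynucleotide supply enzymes make, salvage and remove the deoxynucleoside triphosphates (dNTPs) from which DNA is built. The set held 9 of the 30618 genes with counts, chosen by symbol, and all 9 were among the 16749 genes that passed the filter on low counts. It was divided into 6 genes named here as S-phase forms (RRM1, RRM2, TYMS, TK1, DUT and DCTPP1) and 3 others (RRM2B, SAMHD1 and DCK). The levels came from RNA-seq of ARPE-19, a human cell line of the retinal pigment epithelium, grown in 50 mM glucose, a model of diabetic retinopathy. In the NC group, 3 libraries came from cells given a non-targeting control siRNA, and in the siEIF1 group, 3 came from cells given an siRNA against EIF1, the initiation factor that helps the ribosome select a start codon. High glucose was common to all 6 libraries, and no library in normal glucose was analysed here. The comparison asks how these enzymes were expressed when EIF1 was lowered.

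Ribonucleotide reductase turns ribonucleotides into deoxyribonucleotides. It pairs the large catalytic subunit RRM1 with a small subunit, either RRM2, which proliferating cells make in S phase, or RRM2B, a p53-inducible form that serves DNA repair and mitochondrial DNA outside S phase. Thymidylate synthase (TYMS), fed with dUMP by the dUTPase DUT, makes the thymidine nucleotide. Thymidine kinase 1 (TK1) and deoxycytidine kinase (DCK) salvage deoxynucleosides, DCTPP1 hydrolyses dCTP and its modified forms, and SAMHD1 breaks down dNTPs, mostly in resting cells.

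Total counts ranged from 26499929 to 31431479 per library. EIF1 itself lay between 281.08 and 294.35 FPKM (the deposited fragment counts scaled for gene length and library size) in the NC libraries and between 22.68 and 24.28 in the siEIF1 libraries, and its log2 fold change was -3.58 (edgeR, adjusted p = 1.08e-13). Of 16 retinal pigment epithelium markers, 11 were tested and 3 of these passed as higher (KRT8, KRT18 and RLBP1), where 10.2% of all tested genes did. RLBP1 had 11 to 49 counts per library. Summed FPKM of the markers ran from 523.48 to 542.41 in the NC and from 566.57 to 612.25 in the siEIF1 group. Most of this sum came from the keratin genes KRT18 (mean FPKM 326.5 in NC and 382.0 in siEIF1) and KRT8 (113.0 and 131.5). BEST1 went the other way, from 66.0 to 52.0, and did not pass. Of the defining markers, RPE65 and TTR had no row in the count table, and the pigment genes TYR, TYRP1 and DCT did not reach the filter on low counts. BEST1, at a high level, shares exon bases with FTH1 on the other strand. Summed FPKM ran from 0.14 to 0.26 over all 6 libraries for endothelial, from 0.83 to 1.01 for leukocyte and from 2.04 to 2.84 for photoreceptor markers. The part of these cell markers in the results was not tested.

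In the siEIF1 libraries 6 of the 9 enzymes were lower, by very different amounts, and 0 were higher. In mean FPKM, RRM2 fell to 29.7% and TK1 to 32.6% of the NC level, RRM1 to 69.0%, DCK to 78.4%, TYMS to 84.5% and DUT to 85.3%. DCTPP1 missed the threshold by a small margin, and RRM2B and SAMHD1 did not pass. A gene passed at a Benjamini-Hochberg adjusted p under 0.05 over all tested genes in edgeR's quasi-likelihood test, which 20.6% of all tested genes did, 10.4% as lower and 10.2% as higher. The 0 higher enzymes were also 0 at an unadjusted p under 0.05, and 0 with DESeq2 and limma. Among the S-phase forms 5 of 6 passed as lower, and among the other 3 enzymes 1 did. RRM2 and TK1 were the 2 that also passed the fold limit of 0.5, which 1.31% of all tested genes did as lower, while 0.4% passed the matching limit of 2 as higher. The median log2 fold change was -0.37 in the S-phase forms and -0.0017 in the other 3, beside 0.0033 over all tested genes. In bulk RNA, fewer cells in S phase and less of a transcript per cell cannot be told apart.

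**Figure D1:**
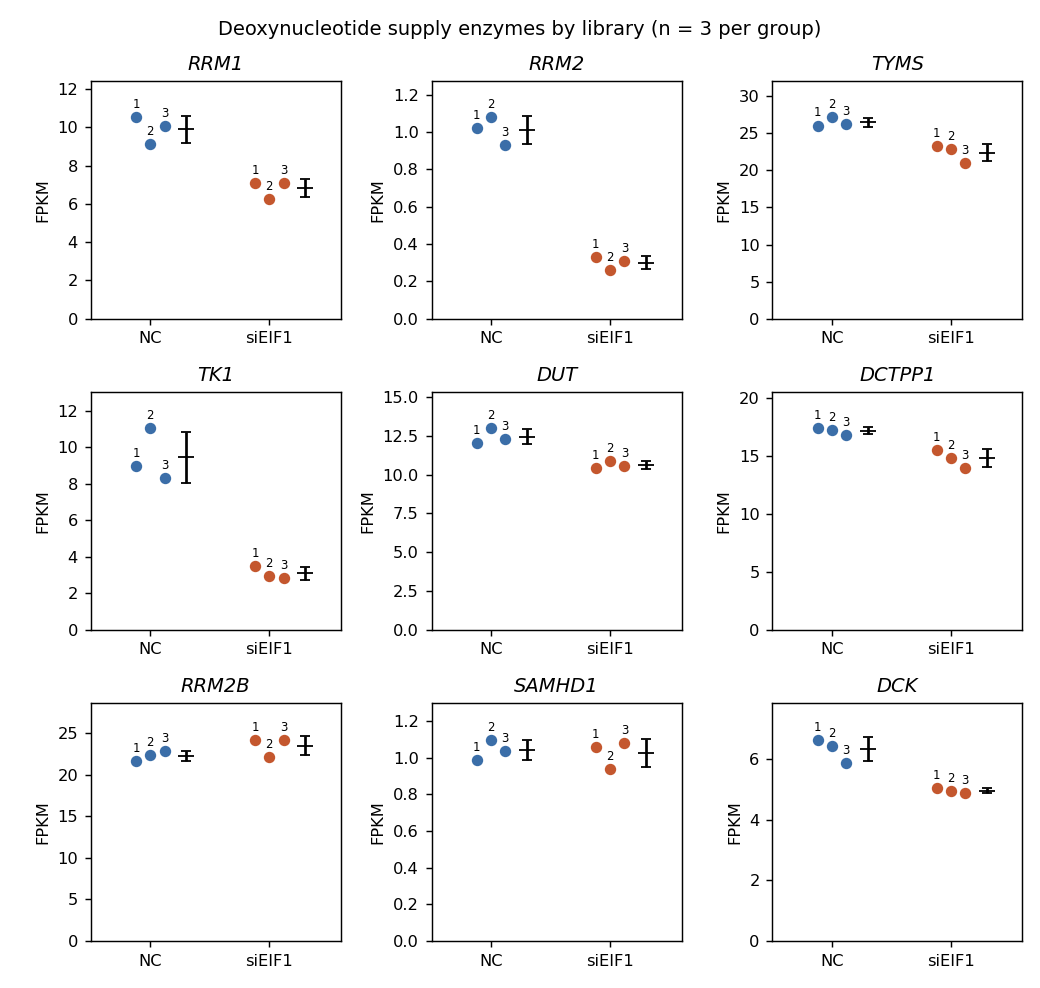
FPKM of the 9 enzymes in each library, with the group on the horizontal axis, each point a library marked with its replicate number and the bar giving the mean and SD of 3 libraries. RRM2 and TK1 sit far lower in the siEIF1 libraries, RRM1, TYMS, DUT, DCTPP1 and DCK sit lower without overlap, and RRM2B and SAMHD1 overlap between the groups.

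RRM2, the S-phase small subunit, fell strongly. It had 304, 345 and 289 counts in NC replicates 1 to 3 and 115, 87 and 103 in siEIF1 replicates 1 to 3. As FPKM, the values were 1.02, 1.08 and 0.93 in the NC and 0.33, 0.26 and 0.31 in the siEIF1 libraries. Every siEIF1 library lay far below the lowest NC library. The log2 fold change was -1.73 (standard error 0.12, 95% interval -1.99 to -1.48, edgeR adjusted p = 7.82e-07), a 3.32-fold lower level. The interval overlaps that of TK1, and their order changed with limma on log2(FPKM + 0.1), at -1.47 for RRM2 and -1.58 for TK1, and on log2(FPKM + 1), at -0.63 and -1.35. RRM2 (ENSG00000171848.16) spans positions 10120698 to 10211725 of chromosome 2 on GRCh38, forward strand, with 10 exons in its canonical transcript.

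The promoters of 8 of the 9 enzymes were matched to RefSeq windows on GRCh38.p14, from 250 bases before to 50 bases after the RefSeq start of the gene, and RRM2B was not among them. They were searched on both strands for the E2F octamers TTTCCCGC, TTTGGCGC, TTTCGCGC and TTTGCCGC, the CCAAT box, and the TTTGAA and TTCGAA forms of the cell cycle homology region, since E2F proteins and the CCAAT-binding factor NF-Y are known regulators of S-phase genes. RRM2 held 3 CCAAT boxes and 0 of the E2F octamers. Its windows of 30 bases are shown because the boxes sit in a repeated unit, with the box in capitals, read along the forward strand.
RRM2 chr2:10122605-10122634: gcaaggcgcagCCAATgggaagggtcggag
RRM2 chr2:10122635-10122664: gcatggcacagCCAATgggaagggccgggg
RRM2 chr2:10122662-10122691: gggcaccaaagCCAATgggaagggccggga

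The first base of these boxes lies at positions -123, -93 and -66, counted from +1 at the start that RefSeq gives, which lies inside the longer GENCODE span of RRM2 given above and downstream of its first base. SAMHD1 held 2 CCAAT boxes and RRM1 held 1, and 34.6% of all 35116 windows of this length held at least 1. TK1, DUT and DCTPP1 held 0 matches of all 3 motifs, and the TTTGAA form was found once, in RRM1, where 16.4% of all windows hold either form. A match is a description of these letters, and no match says only that they are not in that window.

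RRM1, the catalytic subunit, fell far less. Its FPKM was 10.52, 9.12 and 10.05 in the NC and 7.11, 6.27 and 7.11 in the siEIF1 libraries, without overlap. The log2 fold change was -0.51 (standard error 0.064, 95% interval -0.65 to -0.38, edgeR adjusted p = 1.07e-04), and this interval does not meet that of RRM2.

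RRM2B, the p53-inducible small subunit, did not pass in either direction. Its FPKM was 21.66, 22.36 and 22.90 in the NC and 24.27, 22.19 and 24.16 in the siEIF1 libraries, so siEIF1 replicate 2 lay among the NC values. On the counts the log2 fold change was 0.097 (standard error 0.047, 95% interval -0.0029 to 0.20, edgeR adjusted p = 0.166). The interval leaves room for a rise of up to 0.20, and its upper end lies far from the size of the fall of RRM2.

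The subunits were then set side by side within each library, where a scaling of the whole library cancels. In these cells RRM2B was the more abundant small-subunit transcript in every library. The subunit proteins were not measured in the data used here, so the shares and ratios below are of RNA. The FPKM of RRM2B was 21.2, 20.7 and 24.6 times that of RRM2 in the NC and 73.5, 85.3 and 77.9 times in the siEIF1 libraries. RRM2B made up 95.7% ± 0.379 (SD, n = 3) of the small-subunit FPKM in NC libraries against 98.7% ± 0.0922 (SD, n = 3) in siEIF1 libraries, without overlap. The summed FPKM of RRM2 and RRM2B overlapped, at 22.68, 23.44 and 23.83 in the NC and 24.60, 22.45 and 24.47 in the siEIF1 libraries.

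RRM1 fell while that sum overlapped between the groups, and the ratio of small to large subunit transcripts was higher in the siEIF1 libraries. The FPKM of RRM2 plus RRM2B was 2.16, 2.57 and 2.37 times that of RRM1 in the NC and 3.46, 3.58 and 3.44 times in the siEIF1 libraries, without overlap. The FPKM of RRM2 alone was 0.103 ± 0.0138 (SD, n = 3) of that of RRM1 in NC libraries against 0.0438 ± 0.00248 (SD, n = 3) in siEIF1 libraries. These values depend on the length by which each gene was divided. The FPKM of RRM2 imply a length of 11.2 kb, which is 3.44 times its canonical transcript of 3.258 kb in GENCODE release 44, while the ratio is 1.39 for RRM2B, 1.65 for RRM1 and 1.72 for the median gene with a mean count of at least 50. With counts divided by canonical length instead, the RRM2B share of the small-subunit transcripts was 89.9% ± 0.838 (SD, n = 3) in NC libraries. In siEIF1 libraries this share was 96.9% ± 0.221 (SD, n = 3). RRM2B stayed the larger on this scale, at 8.36 to 9.92 times RRM2 in the NC and 29.8 to 34.6 times in the siEIF1 libraries.

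**Figure D2:**
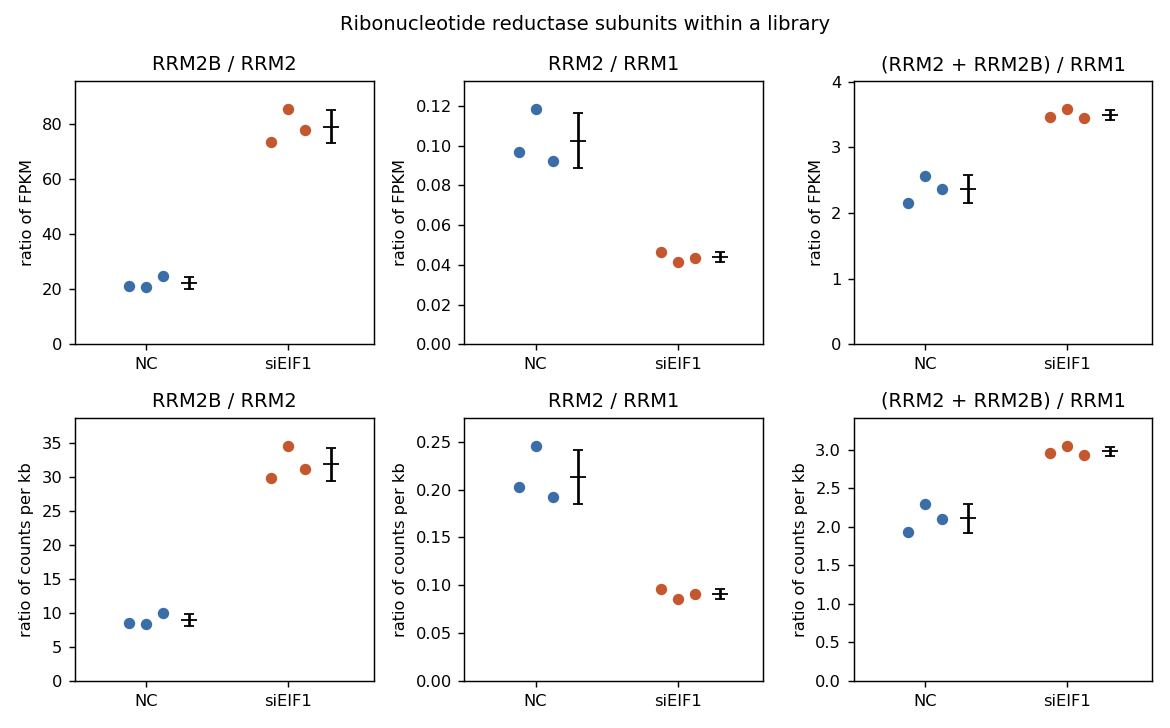
Ratios of ribonucleotide reductase subunits within each library, from deposited FPKM (top row) and from counts per kb of canonical transcript (bottom row), with points for the 3 libraries of a group and bars for mean and SD. The siEIF1 libraries lie apart from the NC libraries in all 6 panels, and the RRM2B to RRM2 ratio is 3.56 times as high in the siEIF1 group on either scale.

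The thymidine enzymes differed in the size of their falls, with a large fall of the salvage kinase and a small fall of the de novo enzymes. TK1, the cytosolic thymidine kinase of S phase, had an FPKM of 8.99, 11.04 and 8.34 in the NC and 3.50, 2.94 and 2.82 in the siEIF1 libraries. NC replicate 2 was the highest, and all siEIF1 libraries lay far below the lowest NC library. The log2 fold change was -1.59 (standard error 0.12, 95% interval -1.85 to -1.34, edgeR adjusted p = 1.42e-06), or 3.02-fold lower, and it was -1.46 without NC replicate 2. The mitochondrial thymidine kinase TK2 rose slightly, from 3.53 ± 0.193 (SD, n = 3) to 3.95 ± 0.203 (SD, n = 3) FPKM (log2 fold change 0.18, edgeR adjusted p = 0.0318). TK2 was among the 6 other nucleotide genes that passed as higher, a count that was 3 with DESeq2 and 2 with limma. A long noncoding RNA on the other strand shares 10.6% of the exon bases of TK2, and a protein-coding gene on the same strand shares 3.07%. Within a library, the FPKM of TK1 was 2.61, 3.26 and 2.22 times that of TK2 in the NC but 0.900, 0.776 and 0.675 times in the siEIF1 libraries, so the order of these kinases turned over. On counts per canonical length the mean ratio went from 1.62 to 0.472, with the same turn.

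TYMS, the thymidylate synthase, had the highest FPKM of the 9 enzymes in the NC group. Its FPKM was 26.05, 27.16 and 26.24 in the NC and 23.24, 22.82 and 21.04 in the siEIF1 libraries, without overlap. Its log2 fold change of -0.22 (standard error 0.058, 95% interval -0.35 to -0.098, edgeR adjusted p = 0.0147) was small beside that of TK1. ENOSF1, a gene on the other strand, covers 60.0% of the exon bases of TYMS, and although the libraries were strand-specific, whether the counting used the strand is not given in the sources used here, so reads of the pair may not have been separated. ENOSF1 had a log2 fold change of -0.17 (edgeR adjusted p = 0.0494).

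An E2F octamer was found in the promoter windows of TYMS and DCK, and 3.31% of all windows hold one. Both are shown along the strand of the gene, with capitals on the octamer, which reads on the opposite strand.
TYMS chr18:657603-657632: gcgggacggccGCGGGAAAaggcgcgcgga
DCK chr4:70993659-70993688: gctgcctccgcGCGCCAAAgtcaaaccccg

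DUT, the dUTPase that keeps uracil out of DNA and supplies dUMP, had an FPKM of 12.04, 12.97 and 12.31 in the NC and 10.42, 10.87 and 10.55 in the siEIF1 libraries. All 3 siEIF1 libraries lay lower, by -0.21 on the log2 scale (standard error 0.056, 95% interval -0.33 to -0.088, edgeR adjusted p = 0.0179). DUT has 8 annotated pseudogene copies in GENCODE, RRM2 3 and TYMS 2, and the copies with a row in the count table reached at most 7 counts in a library. Counts per gene do not separate the nuclear and mitochondrial forms of DUT, and 10.9% of its exon bases are shared with DUT-AS1 on the other strand. TYMS and DUT moved by like amounts, and the ratio of their FPKM was 2.13 ± 0.0348 (SD, n = 3) in NC libraries against 2.11 ± 0.118 (SD, n = 3) in siEIF1 libraries, with overlap. Both calls rested on NC replicate 2, since without it the adjusted p was 0.0610 for TYMS and 0.0802 for DUT (edgeR), with log2 fold changes of -0.20 and -0.18.

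DCTPP1, the dCTP pyrophosphatase, stood at the threshold. The FPKM was 17.35, 17.25 and 16.79 in the NC and 15.52, 14.83 and 13.97 in the siEIF1 libraries, and the groups did not overlap. Its log2 fold change was -0.19 (standard error 0.064, 95% interval -0.33 to -0.053, edgeR adjusted p = 0.0507). With the replicate number as a block the adjusted p was 0.0233 (edgeR), which made 7 enzymes lower in place of 6. In library-scaled counts the groups did not overlap in DCTPP1 and the 6 enzymes that passed, all lower, where 18.9% of all tested genes did the same. RRM2B lay higher without overlap on that scale, as did 18.2% of all tested genes, and 37.1% showed either.

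DCK, which salvages deoxycytidine and is not tied to S phase, fell more than TYMS or DUT by its estimate, though the intervals overlap. The FPKM was 6.64, 6.44 and 5.87 in the NC and 5.03, 4.95 and 4.87 in the siEIF1 libraries, and the siEIF1 values were close together. The log2 fold change was -0.33 (standard error 0.072, 95% interval -0.49 to -0.18, edgeR adjusted p = 0.00528). TK1 fell more than DCK, and its FPKM was 1.35, 1.71 and 1.42 times that of DCK in the NC but 0.696, 0.594 and 0.579 times in the siEIF1 libraries.

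SAMHD1, the dNTP hydrolase, did not pass, at a fold change near 0. Its FPKM was 0.99, 1.10 and 1.04 in the NC and 1.06, 0.94 and 1.08 in the siEIF1 libraries, with full overlap. The log2 fold change was -0.0017 (standard error 0.080, edgeR adjusted p = 0.992), and the 95% interval from -0.17 to 0.17 bounds the change that these libraries allow. With RRM1 lower, the mean ratio of SAMHD1 to RRM1 in FPKM was 1.42 times as high in the siEIF1 as in the NC libraries, without overlap. Counts of SAMHD1 ran from 348 to 439 per library.

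**Figure D3:**
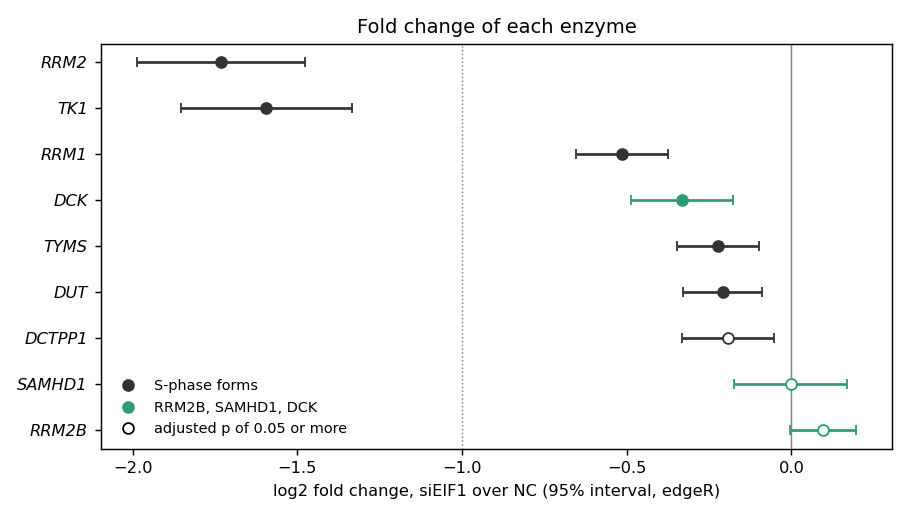
Log2 fold change of siEIF1 over NC with the 95% interval for each enzyme, from edgeR on 3 against 3 libraries. The dark points are the S-phase forms, the green points RRM2B, SAMHD1 and DCK, open points did not pass an adjusted p of 0.05, and the dotted line marks the fold limit, which RRM2 and TK1 lie beyond.

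In the NC group, the order of mean FPKM was TYMS (26.5), RRM2B (22.3), DCTPP1 (17.1), DUT (12.4), RRM1 (9.90), TK1 (9.46), DCK (6.32), SAMHD1 (1.04) and RRM2 (1.01). The libraries of neighbours in this order did not overlap, except for RRM1 with TK1 and SAMHD1 with RRM2. In library-scaled counts per canonical kb, RRM2 (3.48) lay above SAMHD1 (2.99) in the NC group, and these were still the 2 lowest. In the siEIF1 group, RRM2B (23.5) and TYMS (22.4) were the highest, with overlapping libraries, and TK1 (3.09) lay below DCK (4.95). Per canonical kb, TYMS (41.1) stayed above RRM2B (32.6) in that group, and TK1 (4.88) again lay below DCK (7.51).

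Other genes of nucleotide metabolism had small fold changes. In 7 lists of other nucleotide genes, 69 of 73 genes were tested, with a median log2 fold change of -0.075. Of these, 19 passed as lower (27.5%, beside 10.4% of all tested genes). As higher, 6 passed (8.70%, beside 10.2%), which is near the share of all tested genes. The count of 6 was 3 with DESeq2, 2 with limma and 1 without NC replicate 1 or siEIF1 replicate 2. The fold limit was passed by 0 of them in edgeR, where 24 were lower and 11 higher at an unadjusted p under 0.05, and by 0 with DESeq2 and limma. The folate enzymes MTHFD2 (-0.41) and MTHFD1 (-0.21) were lower, and the dCMP deaminase DCTD was higher (0.15), as log2 fold changes that passed.

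Among 13 salvage and nucleotide kinases, 3 passed as lower (23.1%, beside 10.4% of all tested genes) and 2 as higher (15.4%, beside 10.2%). Thymidylate kinase (DTYMK), the step after TYMS and TK1, fell with a log2 fold change of -0.47 and the diphosphate kinase NME1 with -0.24, while NME3 rose with 0.23. Of 17 breakdown and clean-up enzymes, 4 were lower (23.5%) and 3 higher (17.6%), beside the same shares of all tested genes. The lower ones included the oxidised nucleotide hydrolase NUDT1 (-0.92), the uridine phosphorylase UPP1 (-0.64) and the purine nucleoside phosphorylase PNP (-0.35). The higher ones were NUDT18 (0.42), NT5E (0.32) and NUDT16 (0.21).

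The CTP synthase CTPS1 (-0.36) was the 1 of 5 pyrimidine genes that passed. This is near the share of all tested genes that passed in either direction (20.6%). CAD, which starts pyrimidine synthesis, had a log2 fold change of -0.0013 (95% interval -0.14 to 0.14). Of 16 purine genes, 6 were lower (37.5%, beside 10.4% of all tested genes), among them ADSS2 (-0.34), GART (-0.24) and PAICS (-0.19). In this list 0 were higher (3 at an unadjusted p under 0.05, edgeR). Of 7 tested transporters 2 were lower (28.6%, beside the same 10.4%), among them the mitochondrial carrier SLC25A33 (-0.50). Of 4 uracil and mismatch base excision genes 0 passed in edgeR (1 lower at an unadjusted p under 0.05), and UNG, the uracil glycosylase that acts where DUT fails, had a log2 fold change of 0.0025 (95% interval -0.16 to 0.16).

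**Figure D4:**
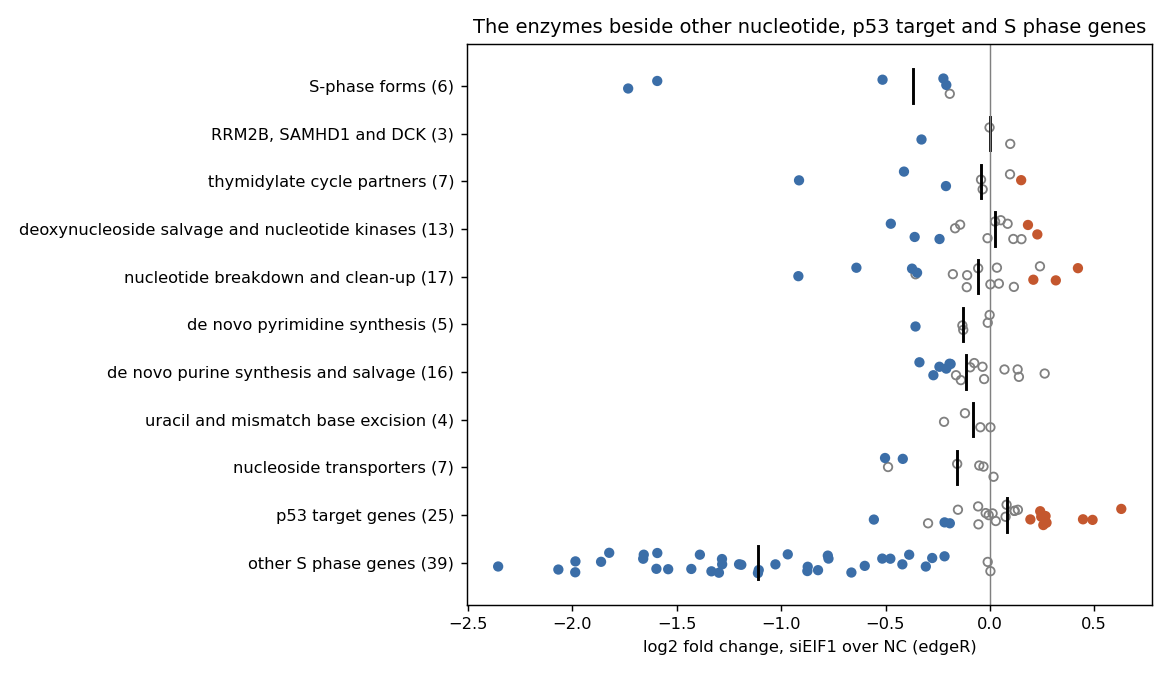
Log2 fold change of every tested gene by list, with filled points for an adjusted p under 0.05 (blue lower, red higher), open points for the rest, black bars for the median and the number of genes in parentheses. RRM2 and TK1 lie within the range of the other S phase genes, most nucleotide genes lie near 0, and 9 of 25 p53 target genes are higher.

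RRM2B is a p53 target, so other p53 targets were read beside it. Of 25 tested, 9 passed as higher (36.0%, beside 10.2% of all tested genes). As lower, 3 of the 25 passed, which is near the share of all tested genes (10.4%). The median log2 fold change of the 25 was 0.080. The higher ones were led by TP53I3 (0.63), BTG2 (0.49) and FDXR (0.45), and the lower ones were the stress gene SESN2 (-0.56), the death receptor gene TNFRSF10B (-0.22) and the kinase gene PLK3 (-0.19). CDKN1A, which encodes the cell cycle inhibitor p21, had a log2 fold change of -0.15 (edgeR adjusted p = 0.0747) and MDM2 of 0.080 (edgeR adjusted p = 0.290).

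Other S phase genes, from the published Seurat list without the enzymes, fell broadly. Of 39 tested, 37 passed as lower (94.9%, beside 10.4% of all tested genes), with a median log2 fold change of -1.11, and UNG and CASP8AP2 did not pass. Of these genes, 6 had a lower log2 fold change than RRM2 and 9 a lower one than TK1, while 31 lay below RRM1, 36 below TYMS and 37 below DUT and DCTPP1. RRM2 and TK1 thus lay toward the lower end of this list and TYMS, DUT and DCTPP1 near its upper end. RPA2 (-1.28), MCM5 (-1.03) and FEN1 (-1.11), which act at the replication fork, had the smallest p-values. Falls of at least 0.5 on the log2 scale were found in 31 of them. They included CLSPN, CDC6, CDC45, RAD51AP1, DTL, CCNE2, UHRF1, EXO1, CENPU, BLM, GINS2, WDR76, HELLS, BRIP1, RPA2, PRIM1, DSCC1, CDCA7, FEN1, MCM4, MCM5, ATAD2, TIPIN, MCM2, GMNN, CHAF1B, POLD3, RFC2, MCM6 and USP1.

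Across the 6 libraries, the genes whose log2 library-scaled counts followed RRM2 most closely among 13383 genes with a mean count of at least 50 were MYBL2 (Pearson r = 0.9993), HLA-F (r = 0.9989), SMC2 (r = 0.9989), BRCA1 (r = 0.9979) and RHOT1 (r = 0.9978). For RRM2B they were TMEM101 (r = 0.9905), STXBP5 (r = 0.9865), WDR55 (r = 0.9843), PLEKHN1 (r = 0.9828) and PM20D2 (r = 0.9826). The log2 fold changes of the genes named for RRM2 ran from -1.95 (BRCA1) to -0.24 (HLA-F), beside -1.73 for RRM2. A correlation near 1 thus does not mean a change of like size. These correlations describe 6 libraries in 2 groups, and share the same libraries and scaling.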

How the data were processed

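The authors trimmed reads with FASTX-Toolkit, aligned them to GRCh38 with HISAT2 and deposited counts of uniquely mapped reads per gene, without normalization. The authors also deposited FPKM, rounded to 2 decimals. The counting program, strand setting and annotation release are not given in the sources used here. Samples were grouped by title, and 0 columns were left unmatched. Counts were filtered with filterByExpr, scaled by TMM and tested with edgeR 4.0.16 in R 4.3.3 (quasi-likelihood, Benjamini-Hochberg over 16749 genes), with DESeq2 1.42.0 and limma 3.58.1 (log2 of FPKM + 1 or + 0.1) as alternatives. Standard errors came from the F statistic. The test was checked on simulated counts with changes of 2-fold or more, so small falls such as those of TYMS, DUT and DCTPP1 were not covered. The study describes independent replicates, and libraries of a group differed by more than sampling noise (chi-square per degree of freedom 3.03 to 14.1). Deviations from the group mean correlated at 0.177, 0.189 and 0.248 between libraries with the same number (13383 genes). Between libraries with unlike numbers they ran from -0.274 to 0.0626. Centring within each group ties these correlations to each other, and the sample titles give only a replicate number. A pairing is thus not established, and the block was run only as an alternative. Lengths and overlaps came from GENCODE release 44 canonical transcripts and promoters from RefSeq. The enzymes and lists were chosen with earlier results of these data known. Named were the enzymes, EIF1, list genes that passed with a log2 fold change of at least 0.5 in size or with the 3 smallest p-values per direction, and the 5 genes most like RRM2 and RRM2B. CAD, UNG, CDKN1A, MDM2, CASP8AP2, ENOSF1, DUT-AS1 and marker genes were named after their values were seen. With 3 libraries against 3, exact permutation of a single value cannot go below p = 0.1, so ratios are given with their ranges and no p. Some genes of the lists are counted but not reported here by name.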

Additional observations from a re-analysis of the deposited data

How the results depend on the processing

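RRM1, RRM2, TK1 and DCK passed as lower in all 14 alternatives, TYMS and DUT in 13 each, DCTPP1 in 6, and RRM2B and SAMHD1 in 0, with adjusted p-values from 0.125 to 0.423 for RRM2B and from 0.800 to 0.995 for SAMHD1 (edgeR, DESeq2 or limma). EIF1 kept its direction and call in all 14. Leaving out a library in turn gave 4 to 7 enzymes as lower, with 4 without NC replicate 2. SAMHD1 turned positive at 0.043 with NC replicate 2 left out and at 0.039 with siEIF1 replicate 2 left out, and its value ran from -0.037 to 0.043. With limma on log2(FPKM + 1), 1 enzyme passed the fold limit, since RRM2 went to -0.63 on that scale, which understates the change of low genes. DCTPP1 passed with RLE normalization, the filter of 10 counts in every library, limma with either pseudocount, the replicate block (adjusted p = 0.0233, edgeR) and without siEIF1 replicate 1. The replicate block changed the call of no other enzyme. The count of 6 other nucleotide genes that were higher fell to 3 with DESeq2 and to 2 with limma on either pseudocount, and it ran from 1 to 7 with a library left out, with 1 if NC replicate 1 or siEIF1 replicate 2 was left out, 2 for NC replicate 3 and 3 for siEIF1 replicate 1. Over all genes, 1744 passed as lower and 1702 as higher, against 1124 and 1118 without siEIF1 replicate 2, and limma gave 1067 or 1071 as higher. On counts per kb of canonical transcript, an alternative chosen after the data were seen, the rise in the RRM2B share went from 3.08 to 7.06 percentage points and the fall in the RRM2 to RRM1 ratio from -0.0588 to -0.123, since the implied and canonical lengths of RRM2 differ. On the deposited FPKM, leaving out a library gave values from 2.94 to 3.30 points and from -0.0639 to -0.0509, and this was not run per canonical length. At 87 to 345 counts, RRM2 had the widest standard error after TK1.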
